A study of Homo sapiens with 4 samples.

Results

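The p53 pathway and cell cycle arrest genes described here were MDM2, TP53I3, the cyclin-dependent kinase (CDK) inhibitor genes CDKN1A, CDKN1B, CDKN1C and CDKN2B, and the growth arrest genes GADD45A, GADD45B and GADD45G. The members were taken as named genes, and every non-control probe whose RefSeq accession maps to one of these symbols was used. This gave 15 probes for 9 genes, out of 41000 probes and 17721 genes with a symbol on the array, and all 15 were called well above background on all 4 arrays. Of the 9 genes, 5 had more than 1 probe and 4 had a single probe. RNA came from OVSAYO, a cell line of ovarian clear cell carcinoma (CCC), and was hybridised to single-colour Agilent arrays on 1 slide, with 1 array per condition. NS-si cells received the Silencer negative control siRNA and Sp1-si cells a pool of siRNAs against the transcription factor Sp1, both by lipofection in RPMI1640 medium, followed by 40 h of culture. NS-si → CoCl2 and Sp1-si → CoCl2 cells were transfected in the same way and then exposed for 4 h to 0.5 mM CoCl2, a hypoxia-mimicking agent. The other arrays came from cells without CoCl2 exposure. The paper's figure legend gives these cells a vehicle control, and states a shorter culture after transfection. NS-si cells are called control cells and Sp1-si cells silenced cells in what follows. The comparisons asked how these genes responded to CoCl2 and whether that response differed once Sp1 was silenced. With 1 array per condition no difference has a replicate check, no test could be run and no p-value is given. A single siRNA pool was used on these arrays, so effects of the pool on other transcripts cannot be told apart from those of Sp1 loss, and in bulk RNA fewer expressing cells cannot be told apart from less RNA per cell.

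Signals are given scaled so that the 75th percentile of each array equals 1000, and ratios are log2 differences of these scaled signals. The deposited signal at the 75th percentile ran from 977 to 1285, and the spots well above background numbered 33081 to 34542 per array. The fewest were on the Sp1-si → CoCl2 array. SP1, the silenced gene, had scaled signals of 484 (control) and 35.6 (silenced) without CoCl2, and of 439 (control) and 30.1 (silenced) with it. Its log2 ratios of silenced to control cells were -3.77 without and -3.87 with CoCl2, so the silenced gene bore out the labels. The clear cell carcinoma markers NAPSA, ANXA4 and PAX8 and all 4 epithelial markers (EPCAM, KRT7, KRT8 and KRT18) were well above background on all 4 arrays. Of 7 markers of other cell types, COL1A1 had no matched probe, PTPRC and PECAM1 were well above background on none of the arrays, while CD3E, CD68, VWF and DCN were on all 4. NAPSA moved with Sp1 silencing by log2 ratios of -2.33 and -2.39, and CD68 by -1.48 and -1.36, without and with CoCl2, and their part in the values below was not tested. Ratios of the 9 genes are mostly given with the SD between the spots of the probe where it has 10 spots, and otherwise with the median SD of the 25 probes with 10 spots that were nearest in signal. This SD measures technical error on the slide only and does not cover the spread between cultures. Leaving out the scaling between the arrays shifted the median log2 ratio of all probes by -0.23 for CoCl2 in control cells, 0.22 for CoCl2 in silenced cells, -0.05 for Sp1 silencing without CoCl2 and 0.40 for Sp1 silencing with CoCl2, so smaller ratios depend on the scaling.

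In the p53 pathway, stress stabilises the transcription factor p53, which raises the transcription of genes that halt the cell cycle, repair DNA or promote cell death. MDM2, a ubiquitin ligase, is both a target of p53 and the enzyme that marks it for degradation. The CIP/KIP proteins p21 (CDKN1A), p27 (CDKN1B) and p57 (CDKN1C) bind cyclin-CDK complexes, whereas the INK4 protein p15 (CDKN2B) binds CDK4 and CDK6 and keeps them from D-type cyclins. The GADD45 proteins are small stress sensors that bind the kinase MAP3K4 upstream of p38 and JNK, and also CDK1 and the replication clamp PCNA. CDKN1A is a classic Sp1-responsive gene, with GC-rich Sp1 binding motifs close to its start, and p21 can also be induced independently of p53.

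RefSeq promoter sequences on the GRCh38.p14 build were found by symbol for 7 of the 9 genes, with 10 annotated starts. CDKN1C and GADD45A were not matched. The 250 bases before each start were searched for the GC box, the core motif bound by Sp1 (GGGCGG on either strand), and for the core of the hypoxia response element, HRE (ACGTG or GCGTG on either strand). The CDKN1A and CDKN1B windows are shown with GC boxes in capitals. They were chosen because both genes belong to the CIP/KIP family and hold GC boxes, yet their brightest probes differed in their ratios after Sp1 silencing. The dimmer CDKN1B probe did not share this difference, with ratios of 0.16 ± 0.096 without and -0.17 ± 0.11 with CoCl2. The GADD45B window is shown because this gene had the largest CoCl2 ratios of the 9, with HRE cores in capitals.
CDKN1A, chr6:36678464-36678713, plus strand: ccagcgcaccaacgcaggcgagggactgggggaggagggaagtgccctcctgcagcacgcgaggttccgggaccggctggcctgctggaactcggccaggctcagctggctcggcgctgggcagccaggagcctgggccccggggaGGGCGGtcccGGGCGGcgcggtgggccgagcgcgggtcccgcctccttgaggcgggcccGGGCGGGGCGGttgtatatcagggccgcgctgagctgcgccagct
CDKN1B, chr12:12717118-12717367, plus strand: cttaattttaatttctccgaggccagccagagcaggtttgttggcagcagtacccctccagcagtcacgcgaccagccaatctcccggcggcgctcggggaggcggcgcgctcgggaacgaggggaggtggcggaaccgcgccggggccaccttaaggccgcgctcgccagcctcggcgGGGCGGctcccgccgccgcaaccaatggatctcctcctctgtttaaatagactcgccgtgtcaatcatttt
GADD45B, chr19:2475877-2476126, plus strand: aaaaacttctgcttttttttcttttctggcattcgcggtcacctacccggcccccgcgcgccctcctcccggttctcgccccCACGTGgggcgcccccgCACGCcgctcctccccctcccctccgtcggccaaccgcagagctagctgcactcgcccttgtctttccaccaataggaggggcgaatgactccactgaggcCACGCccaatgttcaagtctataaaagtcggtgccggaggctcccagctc
CDKN1A held 4 GC boxes, starting at positions -104, -94, -45 and -40 from the start, the last pair of which overlap by 1 base. CDKN1B held 1 GC box, at -71, and CDKN2B held 2. A match to the GC box was present in 42.6% of 35116 promoters of the same length, and 3 or more matches in 13.9%. GADD45B held 4 HRE core matches and no GC box, where the matches at -168 and -167 are both strands of a single palindrome. GADD45G held 2 HRE core matches, again both strands of 1 palindrome, and no GC box. CDKN1A and CDKN1B held 1 HRE core each, and TP53I3 held neither motif. The HRE core was found in 43.2% of all promoters and 2 or more matches in 19.4%. MDM2 has 4 annotated starts in 2 clusters, of which 3 had 1 GC box each and those of the downstream cluster also 1 HRE core. The windows of the downstream cluster overlap, and their matches are the same GC box and the same HRE core. These are matches of letters and not measured binding sites.

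**Figure D1:**
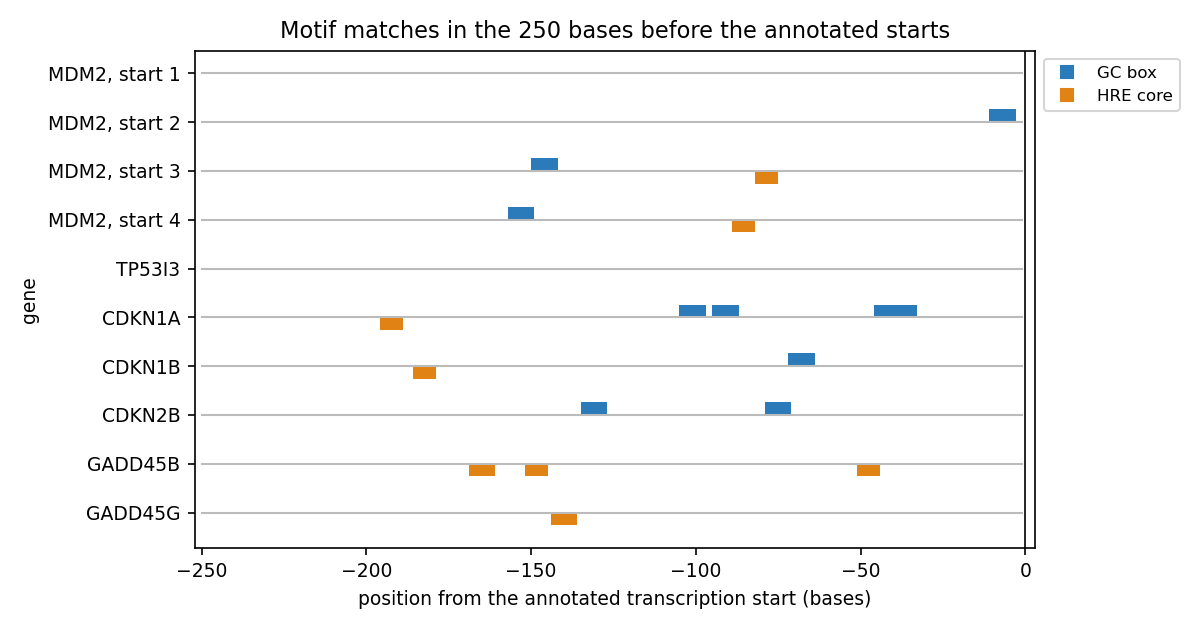
Positions of GC box (blue) and HRE core (orange) matches in the 250 bases before the 10 annotated starts of 7 genes, with the distance from the start in bases on the horizontal axis and 1 line per start. CDKN1A has 4 GC boxes between -104 and -40, and GADD45B has HRE cores but no GC box.

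GADD45B had the highest CoCl2 ratio of the 9 genes in control and in silenced cells. For GADD45B, which couples stress and cytokine signals to MAP kinases, the scaled signal of its brighter probe (A_24_P239606) was 914 in control, 1574 in silenced, 3620 in CoCl2-exposed control and 4639 in CoCl2-exposed silenced cells. The 4 arrays thus fell in a clear order, with both exposed arrays above both unexposed ones and the silenced array above its control partner each time. GADD45B rose with CoCl2 by a log2 ratio of 1.99 ± 0.031 in control cells, or 3.96-fold, and by 1.56 ± 0.031 in silenced cells, or 2.95-fold. The second GADD45B probe (A_23_P142506), with scaled signals of 86.2, 151, 310 and 429 in the same order of arrays, gave 1.85 ± 0.059 and 1.51 ± 0.060. All 3 steps between neighbouring arrays exceeded 2 SD for both probes. Compared with control cells, silenced cells had a GADD45B level higher by 0.78 ± 0.029 without CoCl2 and by 0.36 ± 0.033 with it, and the second probe gave 0.80 ± 0.062 and 0.47 ± 0.053. CoCl2-exposed silenced cells therefore stood at 5.08-fold the level of control cells for the brighter probe. Over the alternative settings the CoCl2 ratio of this probe stayed between 1.76 and 1.99 in control cells and between 1.51 and 1.78 in silenced cells.

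GADD45A, the p53-responsive member of the family, was measured by 1 probe with scaled signals of 5625 in control, 4994 in silenced, 9785 in CoCl2-exposed control and 10047 in CoCl2-exposed silenced cells. Both exposed arrays were again the highest, and they differed from each other by less than 2 SD. The log2 CoCl2 ratio was 0.80 ± 0.029 in control cells, a 1.74-fold difference that did not reach the log2 limit of 1 used for counting. In silenced cells GADD45A rose by 1.01 ± 0.026, just past the limit, and the ratio ran from 0.95 to 1.23 over the alternative settings, so the call depends on the setting. The silenced-to-control ratio was -0.17 ± 0.023 without CoCl2 and 0.04 ± 0.023 with it. GADD45G was dim, with scaled signals of 15.9, 18.3, 29.3 and 20.6 for control, silenced, CoCl2-exposed control and CoCl2-exposed silenced cells. Its CoCl2-exposed control value was the highest, by a log2 ratio to control of 0.88 ± 0.18, while the other 3 arrays lay within 2 SD of their neighbours. With a normexp background correction this ratio was 0.39. In silenced cells the GADD45G ratio was 0.17 ± 0.16 and turned to -0.06 with the same correction.

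**Figure D2:**
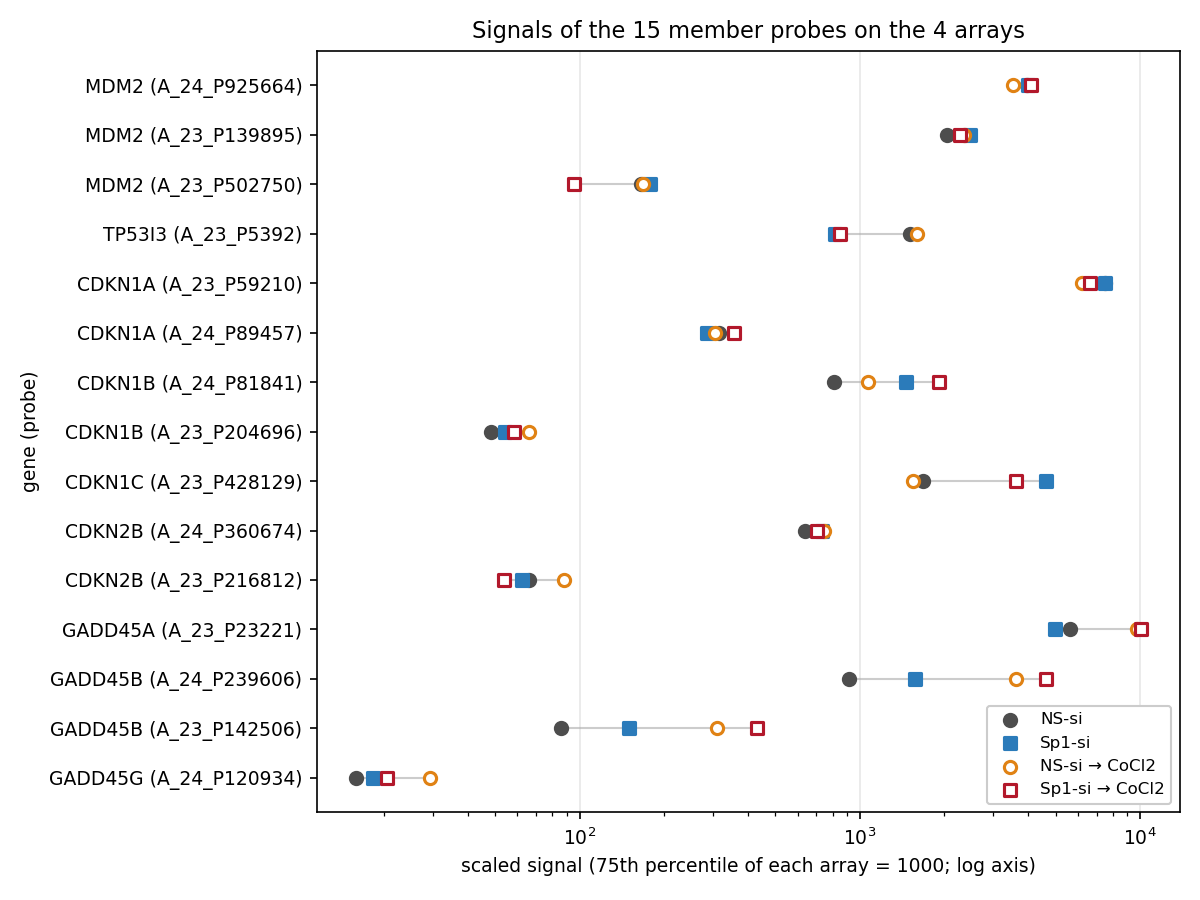
Scaled signal on a log axis (75th percentile of each array set to 1000) of the 15 probes on the 4 arrays, each point being 1 array and each grey line the range of a probe. GADD45A and GADD45B lie higher on both CoCl2 arrays (open symbols), CDKN1C higher on both Sp1-si arrays (squares) and TP53I3 lower on both Sp1-si arrays. Signals of different probes are not comparable with each other.

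Counted over probes, 2 of 15 (13.3%), both of GADD45B, reached a log2 CoCl2 ratio of at least 1 in control cells, against 4.06% of the 31313 probes well above background on both arrays. In silenced cells these probes and that of GADD45A did, 3 of 15, against 3.47% of 30685 probes. No probe of the 9 genes fell by at least 1 with CoCl2, against 3.83% of all probes in control and 5.74% in silenced cells. The median CoCl2 ratio of the 15 probes was 0.23 in control and 0.06 in silenced cells, beside 0.02 and -0.01 for all probes. The counts rest on 2 genes, 1 of them with 2 probes for the same transcript. The members were also chosen with earlier results of these data known, so the shares of all probes are a description only.

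**Figure D3:**
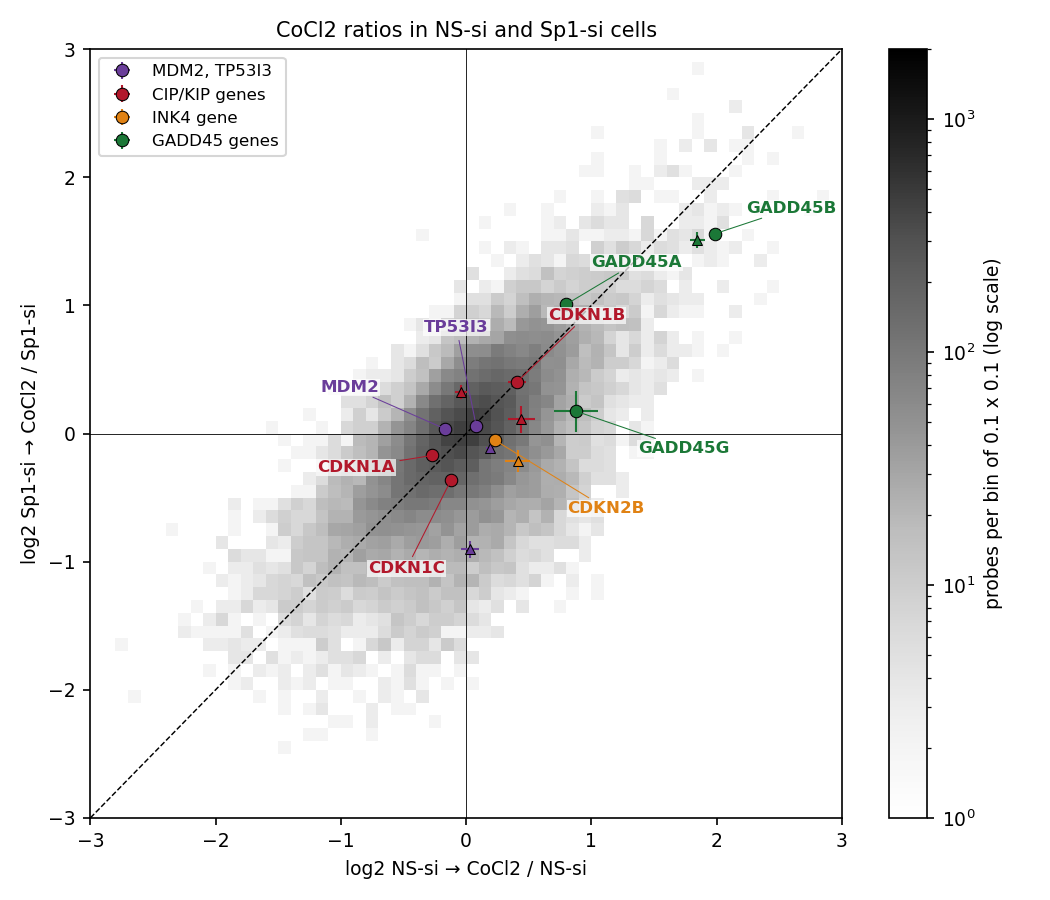
Log2 CoCl2 ratio in NS-si cells (horizontal) against that in Sp1-si cells (vertical), with all probes well above background on 4 arrays as grey bins of 0.1 and the 15 probes as coloured points (circles for the probe of highest mean signal of a gene, triangles for others, bars for the SD between spots of the probe or of probes of like signal). GADD45B and GADD45A lie at the upper right with ratios up to 1.99, and 1 MDM2 probe lies near 0 in NS-si and at -0.90 in Sp1-si cells. A further 48 probes lie outside the axes.

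Among the CIP/KIP genes, only CDKN1C passed the limit of 1 with Sp1 silencing under the settings of the text. CDKN1C, which encodes p57, an imprinted inhibitor of cell growth, had scaled signals of 1677 in control, 4615 in silenced, 1544 in CoCl2-exposed control and 3596 in CoCl2-exposed silenced cells. Both silenced arrays were far above both control arrays. CDKN1C rose in silenced cells by a log2 ratio of 1.46 ± 0.027, or 2.75-fold, without CoCl2 and by 1.22 ± 0.032, or 2.33-fold, with it. With CoCl2 its ratio was -0.12 ± 0.030 in control and -0.36 ± 0.029 in silenced cells, below 0 under all settings tried.

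CDKN1B encodes p27, whose protein level is set largely by the SKP2 ubiquitin ligase and its cofactor CKS1B. The CDKN1B probe with 10 spots (A_24_P81841) had mean scaled signals of 807 in control, 1457 in silenced, 1067 in CoCl2-exposed control and 1923 in CoCl2-exposed silenced cells. Its spots ran from 722 to 867, from 1344 to 1582, from 1034 to 1110 and from 1829 to 2065 on these arrays, so that no kept spot of one array overlapped with those of another, with 2 outlier spots left out on the CoCl2-exposed control array. Relative to control cells, the silenced level was higher by 0.85 ± 0.037 without CoCl2 and by 0.85 ± 0.036 with it, 1.80-fold each, which is under the limit of 1. CoCl2 gave 0.40 ± 0.072 in control and 0.40 ± 0.033 in silenced cells, and the combined difference of CoCl2-exposed silenced from control cells was 1.25. Without scaling the ratio in the presence of CoCl2 was 1.25, past the limit. The second CDKN1B probe (A_23_P204696), with scaled signals of 48.4, 54.0, 65.8 and 58.4 for control, silenced, CoCl2-exposed control and CoCl2-exposed silenced, did not follow this pattern. Its silenced-to-control ratios were 0.16 ± 0.096 and -0.17 ± 0.11, the latter 0.22 without scaling, and no step between its neighbouring arrays exceeded 2 SD. The probes of CDKN1B thus disagree on the difference with Sp1 silencing, although both carry the same accession.

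CDKN1A, the p21 gene and the best known p53 target among CDK inhibitors, had the smallest ratio to Sp1 silencing of the CIP/KIP genes without CoCl2, by the brightest probe of each. Its probe with 10 spots (A_23_P59210) had mean scaled signals of 7484 in control, 7490 in silenced, 6192 in CoCl2-exposed control and 6652 in CoCl2-exposed silenced cells. The unexposed arrays differed by less than the SD between spots, with a silenced-to-control ratio of 0.00 ± 0.021. In the presence of CoCl2 the ratio was 0.10 ± 0.027, and 0.50 without scaling. CoCl2 itself gave -0.27 ± 0.024 in control and -0.17 ± 0.022 in silenced cells, the latter 0.05 without scaling. The dimmer CDKN1A probe (A_24_P89457), which carries the accession of another transcript variant, had scaled signals of 315, 284, 305 and 355 for control, silenced, CoCl2-exposed control and CoCl2-exposed silenced cells, and its CoCl2 ratios were -0.04 ± 0.048 and 0.32 ± 0.052.

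For CDKN2B, the INK4 gene known as a TGF-beta target, the probes differed. Its brighter probe (A_24_P360674) had scaled signals of 637 in control, 731 in silenced, 746 in CoCl2-exposed control and 706 in CoCl2-exposed silenced cells. The control array was the lowest and the other 3 lay within 2 SD of their neighbours. The CoCl2-exposed arrays, not neighbours in this order, had a silenced-to-control ratio of -0.08 ± 0.036, beyond 2 SD. The dimmer probe (A_23_P216812), annotated to another CDKN2B transcript, had scaled signals of 66.0, 62.5, 87.8 and 53.8 in the same order. Its ratio of silenced to control cells was -0.08 ± 0.078 without CoCl2 and -0.71 ± 0.10 with it, and the latter was -0.31 without scaling. Its CoCl2 ratio was 0.41 ± 0.099 in control and -0.22 ± 0.086 in silenced cells.

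TP53I3 (PIG3), a p53 target, encodes a quinone oxidoreductase linked to oxidative stress, and its probe had scaled signals of 1509 in control, 816 in silenced, 1596 in CoCl2-exposed control and 850 in CoCl2-exposed silenced cells. Both silenced arrays lay below both control arrays. The silenced-to-control ratio was -0.89 ± 0.030 without CoCl2 and -0.91 ± 0.028 with it, which falls short of the limit of 1, and the latter was -0.51 without scaling. The CoCl2 ratios were 0.08 ± 0.033 in control and 0.06 ± 0.032 in silenced cells, and both turned sign under 1 or more settings.

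MDM2 was measured by 3 probes with the same accession. The brightest (A_24_P925664) had scaled signals of 3958 in control, 3990 in silenced, 3528 in CoCl2-exposed control and 4089 in CoCl2-exposed silenced cells, and the second (A_23_P139895) had 2054, 2467, 2346 and 2283. Their ratios in the 4 comparisons ranged from -0.17 to 0.26. The dimmest probe (A_23_P502750), with 10 spots, differed from these on a single array, where its mean scaled signals were 165 in control, 179 in silenced, 169 in CoCl2-exposed control and 95.4 in CoCl2-exposed silenced cells. The 8 spots kept on the last array lay between 86.3 and 103, below the lowest spot on any other array, 158. This array also had the fewest spots well above background, and the part of this in the lower signal was not tested. For this probe the CoCl2 ratio was 0.03 ± 0.071 in control and -0.90 ± 0.067 in silenced cells, and the silenced-to-control ratio was 0.11 ± 0.071 without and -0.82 ± 0.085 with CoCl2. Without scaling, the CoCl2 ratio in silenced cells was -0.68 and the silenced-to-control ratio with CoCl2 was -0.43. Of the 40 spots of this probe on the arrays, 5 carried outlier flags and were left out.

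With Sp1 silencing, 1 of the 15 probes (6.67%), that of CDKN1C, was raised by at least 1 without CoCl2, against 5.01% of 31437 probes, and the same probe with CoCl2, against 6.08% of 30514 probes. None was lowered by at least 1, against 5.38% without and 9.16% with CoCl2. These shares do not set the 9 genes apart from the rest of the array, and the median over the 15 probes was 0.16 without and 0.04 with CoCl2, beside -0.02 and -0.06 for all probes.

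**Figure D4:**
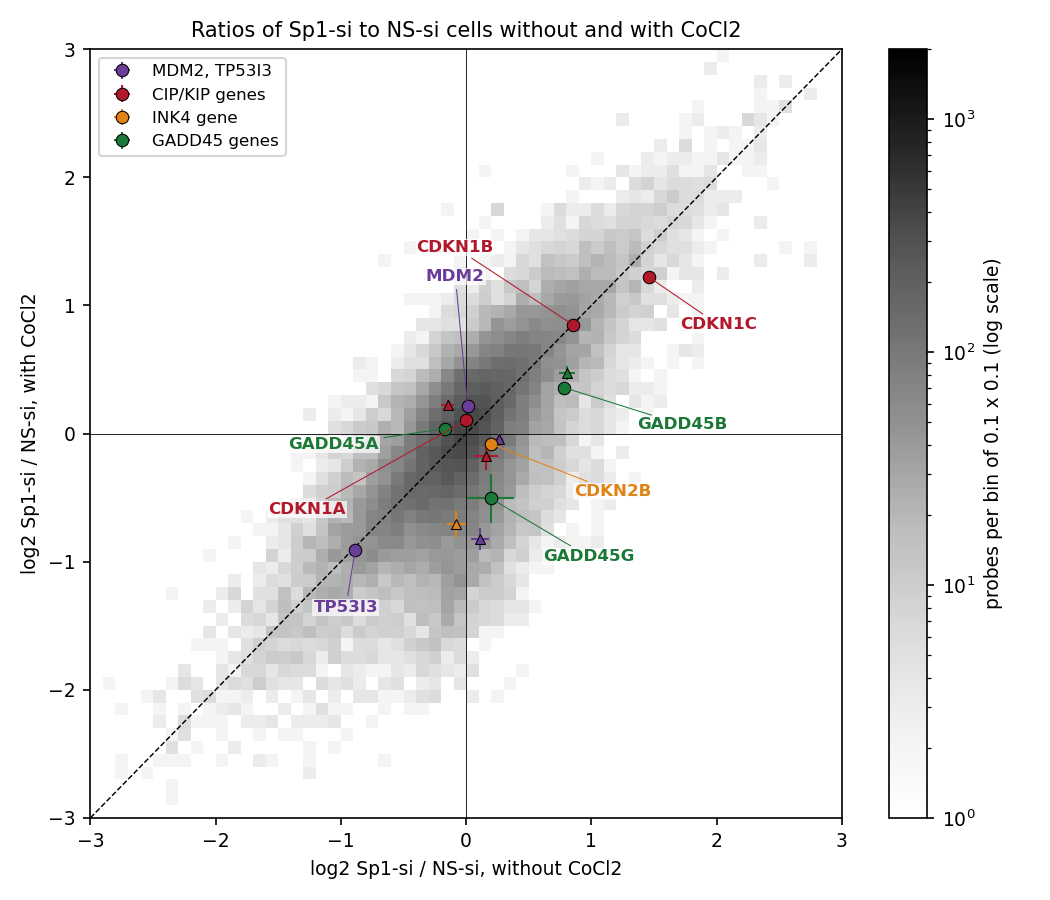
Log2 ratio of Sp1-si to NS-si cells without CoCl2 (horizontal) against that with CoCl2 (vertical), with all probes well above background on 4 arrays as grey bins of 0.1 and the 15 probes as coloured points (circles for the probe of highest mean signal of a gene, triangles for others, bars for the SD between spots of the probe or of probes of like signal). CDKN1C, CDKN1B and TP53I3 lie near the diagonal at 1.46, 0.85 and -0.89 on the horizontal axis. A further 93 probes lie outside the axes.

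The difference between the CoCl2 ratios, silenced minus control, was under 1 in size for all 15 probes, against 1.05% of 30234 probes that were at least 1 and 4.87% at or below -1. For the brightest CDKN1B probe and for TP53I3 it was -0.00 ± 0.064 and -0.02 ± 0.043, within the SD between spots. It was -0.43 ± 0.043 and -0.33 ± 0.084 for the GADD45B probes, and 0.21 ± 0.036 for GADD45A. The most negative value was -0.93 ± 0.085 for the dim MDM2 probe, followed by -0.70 ± 0.27 for GADD45G and -0.63 ± 0.13 for the dim CDKN2B probe. Leaving out the scaling raises every one of these differences by about 0.45, so that the brighter GADD45B probe came to 0.02 and CDKN1B to 0.45. Since the shift is common to all probes, the order of the 15 probes stays as given under such a change.

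**Figure D5:**
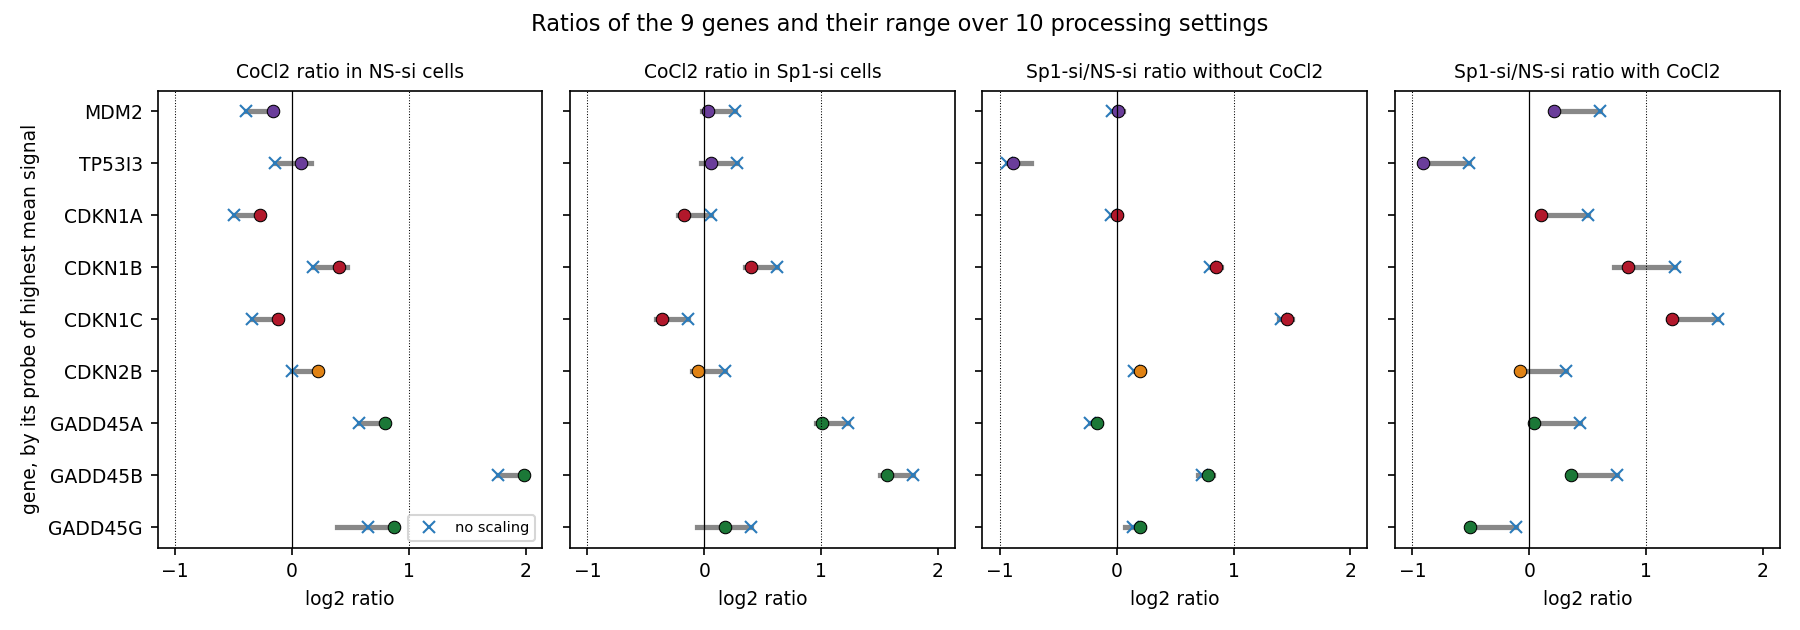
Log2 ratios of the 9 genes, each by its probe of highest mean signal, in 4 comparisons, with circles for the values in the text, grey bars for the range over 10 processing settings, blue crosses for the values without scaling and dotted lines at 1 and -1. The CoCl2 ratio of GADD45B and the Sp1-si to NS-si ratio of CDKN1C lie above 1 over their whole range in both of their comparisons, whereas GADD45A in Sp1-si cells crosses the line at 1.

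Other genes of the pathway, taken from lists of the same biology and each represented by its probe of highest mean signal, are given for comparison, with the background counted in the same way over genes. These lists, too, were chosen with earlier results of these data known. Of 3 further CDK inhibitors, CDKN2D, the INK4 gene for p19, rose with CoCl2 by 1.53 in control cells, where 3.79% of 14620 genes rose by at least 1 and 3.22% fell, and had a ratio of 0.63 in silenced cells, where 3.47% of 14453 genes rose and 3.64% fell. The difference between its CoCl2 ratios was -0.91, with 0.994% of 14283 genes at 1 or more and 2.86% at -1 or less. CDKN2D rose in silenced cells by 2.16 without CoCl2, where 5.85% of 14616 genes did, and by 1.25 with it, where 7.09% of 14398 genes did. CDKN3, a phosphatase that acts on CDK2, was raised by 1.46 in silenced cells with CoCl2 and stood at 0.94 without it. The third gene had ratios between -0.16 and 0.59.

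Of 26 other p53 target genes, 2 rose with CoCl2 in control cells, where 3.79% of all genes did, and none fell, where 3.22% of all genes did. These were PLK3, a stress-responsive kinase, at 1.35, and PMAIP1, the BH3-only protein NOXA, at 1.02. In silenced cells 0 of the 26 passed the limit in either direction, against 3.47% of all genes raised and 3.64% lowered, and PLK3 was at 0.97 and PMAIP1 at 0.73. The median CoCl2 ratio of the list was -0.26 in control and -0.18 in silenced cells, against 0.00 for all genes in both. BTG2 had CoCl2 ratios of -0.97 in control and 0.08 in silenced cells. The difference between them was 1.05 ± 0.038, the only one of the list past the limit. Of all genes, 0.994% had a difference of 1 or more and 2.86% of -1 or less. BTG2 is named after its value was seen. After Sp1 silencing without CoCl2, 3 rose and 1 fell, against 5.85% of all genes raised and 5.82% lowered, namely TP53INP1, a regulator of p53 and of autophagy, at 1.67, RRM2B, a ribonucleotide reductase subunit, at 1.44, PHLDA3, an inhibitor of AKT, at 1.03, and CCNG1, a cyclin that binds phosphatase 2A, at -1.18. With CoCl2, RRM2B was at 1.62, TP53INP1 at 1.41, SESN1, a sestrin that restrains mTORC1, at 1.33 and CCNG1 at -1.10, so that again 3 rose and 1 fell, against 7.09% of all genes raised and 7.67% lowered. Other probes of the listed p53 targets went past the limit where the brightest did not, and these are named after their values were seen. A dimmer BBC3 probe gave 1.25 for CoCl2 in control cells, where the brightest gave 0.56 and the remaining probe -0.01. A dimmer BAX probe gave -1.41 for Sp1 silencing with CoCl2, where the brightest gave -0.28 and the remaining probe -0.52. Of 11 regulators of p53, 0 passed the limit in any of the 4 comparisons, beside the shares of all genes just given, with ratios between -0.68 and 0.63.

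Of 18 G1/S cyclins, CDKs and E2F genes, 17 were well above background on the arrays compared. SKP2, the ligase subunit that targets p27, fell in silenced cells by a log2 ratio of -2.04 without and -2.21 with CoCl2. CKS1B, its cofactor, fell by -1.24 and -1.46, and the other CKS1B probes gave -1.22 and -1.38 without and -1.44 and -1.63 with CoCl2. The list had 5 genes lowered and 0 raised without CoCl2, where 5.82% of all genes were lowered. Besides SKP2 and CKS1B these were CCNE2 at -1.49 ± 0.24, a dim probe, CCND3 at -1.31 and CCNA2 at -1.31. CKS1B was the fifth of these by size and is named there after its value was seen. With CoCl2, 4 were lowered and 0 raised, where 7.67% of all genes were lowered, and besides SKP2 and CKS1B these were CCND3 and E2F1, both at -1.02. With CoCl2 itself, the dim CCNE2 probe fell by -1.22 ± 0.22 in control cells, where 3.22% of all genes fell, from a scaled signal of 27.1 to 11.6. In silenced cells its ratio was 0.58 ± 0.23. The difference between these CCNE2 ratios was 1.80 ± 0.33, the only one of the list past the limit, and is given after its value was seen. Of all genes, 0.994% had a difference of at least 1. CCND3 rose by 1.07 with CoCl2 in silenced cells, where 3.47% of all genes rose. Dimmer probes disagreed for E2F2, at -1.39 for CoCl2 in control cells against -0.11 for the brightest, and for CCND1, at -1.43 for CoCl2 in silenced cells against 0.33 for the brightest, and both are named after their values were seen. Among 8 partners of the GADD45 proteins, CDK1, the mitotic kinase, fell in silenced cells by -1.12 without and -1.56 with CoCl2. It was the only partner past the limit in these comparisons, where 5.82% and 7.67% of all genes were lowered. With CoCl2, MAP2K6, a kinase that activates p38, fell by -1.20 in control and -1.14 in silenced cells, and CDK1 had ratios of -0.90 and -1.34. Thus 1 partner was lowered in control and 2 in silenced cells, against 3.22% and 3.64% of all genes. The median CoCl2 ratio of the 8 partners was -0.78 in control and -0.48 in silenced cells, against 0.00 for all genes in both.

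For the 3 members with the widest range over the arrays, the genes with the most similar pattern were found by the Euclidean distance over the 3 log2 ratios to the control array, which all share that array, among 14282 other genes well above background on all 4 arrays. Nearest to GADD45B were ABCB6 at a distance of 0.056, NFKBID at 0.095 and GFPT2 at 0.14. Nearest to CDKN1C were DYRK2 at 0.055 and MFSD6 at 0.096, and nearest to CDKN1B were ST3GAL5 at 0.036, RMND5A at 0.086 and PBXIP1 at 0.088. Likeness over 3 ratios is a description of these arrays.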

How the data were processed

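RNA of OVSAYO cells under 4 conditions was labelled with Cy3 and hybridised to 1 Agilent whole human genome array each. The deposited intensities come from Agilent Feature Extraction 10.5.1.1 with background subtracted and spatial detrending, and were not normalized between arrays. The scanner's 0/1 flags for outlier spots and for spots well above background were deposited by the authors in the same files. Their value table is the same intensity multiplied by 1 constant per array. The probe design is on hg18, so no coordinates of probes are given.

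Non-control spots without outlier flags were used as log2 intensity minus the 75th percentile of the array and each probe took the mean of its spots. At least 50% of these had to be well above background for the probe to count as such. Symbols came from RefSeq accessions, which named 26222 of 41000 probes. A probe was counted as raised or lowered at a log2 size of at least 1 if well above background on every array compared. No test was possible with 1 array per condition. The genes named are the members, SP1, cell type markers, genes of the lists past this limit (at most 4 per list and comparison) and the 3 nearest genes of the 3 members of widest range, of which 1 marker and 1 nearest gene are not reported here. CKS1B without CoCl2 and the genes whose dimmer probes disagree are named besides, after their values were seen. So are BTG2 and CCNE2 for the difference between their CoCl2 ratios. The members and lists were chosen with earlier results of these data known. The counting was tested on simulated data with planted ratios well past the limit, and 200 of 200 planted log2 ratios of 2 were recovered with 0 other probes called. Such large planted ratios check the counting only and cannot speak to ratios near the limit or to the spread between cultures. Alternatives were other scalings, the value table, normexp with an offset of 50 on the median signals of spot and background, outlier spots kept, a floor, a looser background filter, the mean over probes and a limit of 0.5. Python 3.11.15, numpy 2.4.6, pandas 2.3.3, R 4.3.3 and limma 3.58.1 were used.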

Additional observations from a re-analysis of the deposited data

Results flagged for a closer look

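For 4 probes the sign of a ratio differed between the conditions compared, with both ratios beyond 2 SD between spots, and with 1 array per condition this difference was not tested. The second MDM2 probe (A_23_P139895) had CoCl2 ratios of 0.19 in control and -0.11 in silenced cells, a difference of -0.30, and without scaling the signs were exchanged (-0.03 and 0.11). The dim CDKN2B probe (A_23_P216812) had CoCl2 ratios of 0.41 and -0.22, a difference of -0.63, and the second of these was 0.01 without scaling. The dim CDKN1A probe (A_24_P89457) had silenced-to-control ratios of -0.15 without and 0.22 with CoCl2, a difference of 0.37. The brighter CDKN2B probe (A_24_P360674) had 0.20 without and -0.08 with CoCl2, a difference of -0.28, and the latter ratio was 0.32 without scaling. The SD behind these values leaves out the spread between cultures.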

How the results depend on the processing

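No paired analysis was possible because each condition has 1 array. Of the 75 ratios and differences of the 15 probes, 49 kept their sign under all 10 settings and 61 under those other than leaving out the scaling, and no value of size 1 or more changed sign. The main setting is among the 10. The floor and the looser background filter could not change these values, because all 15 probes were well above background on every array. Without scaling, 2 probes in place of 1 were raised in silenced cells with CoCl2, CDKN1B joining CDKN1C, while the share of all probes raised went from 6.08% to 14%. The mean over the probes of a gene gave 1 gene of 9 raised by CoCl2 in control cells, where 2 probes of the same gene had counted. With the limit at 0.5, the probes raised by CoCl2 in control cells were 4, those lowered in silenced cells 1, those raised and lowered by Sp1 silencing 4 and 1 without CoCl2 and 2 and 4 with it, and those with a difference at or below the negative limit 3, with the cause given by the limit itself. The shares of all probes at this limit were, in the same order, 14.9%, 17.4%, 14.6% and 15.9%, 17.3% and 24.2%, and 15.3%. The share of raised among called probes of the whole array was 51.5% for CoCl2 in control cells and 27.4% without scaling, or 64.2% with normexp. It was 37.7% for CoCl2 in silenced cells, 49.3% with median scaling and 64.2% without scaling, and 39.9% for Sp1 silencing with CoCl2, 51.0% with median scaling and 77.0% without scaling. For the difference it was 17.7%, 28.4% with quantile normalization, 28.5% with median scaling, 84.5% without scaling and 8.32% with normexp. GADD45G, with the lowest signals of the 15 probes, has the largest SD, taken from probes of like signal, and the number of arrays limits all values.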
